A study of Sus scrofa with 32 samples.

Results

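Genes of megakaryocytes and platelets, 6 in number, were followed in the liver of pig fetuses by 1-colour microarray. Each encodes a protein for which platelets or their parent cells are known, and they are ITGA2B, ITGB3, PPBP, SELP, CD9 and TBXAS1. A gene was found through the transcript accession that the array design gives for its probe, and of several matching probes the brightest on average was used. All 6 genes were found and passed the filter on dim probes, out of 1596 genes with a symbol measured in the series. The accessions were NM_213998 for ITGA2B, NM_214002 for ITGB3, NM_213862 for PPBP, NM_214078 for SELP, NM_214006 for CD9 and NM_214046 for TBXAS1. CD9 had 3 probes and the other 5 genes 1 each. The study collected livers at gestational days 37, 50, 70 and 110 from gilts that carried their litters in a crowded uterus, made by removing 1 uterine horn and ovary before insemination. At each day it compared 4 control fetuses with 4 runts, the growth-restricted littermates that such crowding produces, which makes 8 groups and 32 arrays. Controls grew in the same crowded uteri, so neither group stands for an uncrowded litter. The fetuses of a group came from 4 distinct gilts and were measured singly as whole-liver RNA, and the labels do not say which control and runt shared a litter.

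Platelets are shed by megakaryocytes, large cells that ripen from blood progenitors under the hormone thrombopoietin. The fetal liver houses blood formation, megakaryocytes included, for part of gestation before the bone marrow takes it over. ITGA2B and ITGB3 encode the alpha and beta chains of the platelet fibrinogen receptor, integrin alpha-IIb beta-3. The alpha chain is a mark of the megakaryocyte line, while the beta chain also pairs with integrin alpha-V in other cells. PPBP encodes pro-platelet basic protein, a chemokine precursor stored in platelet alpha granules. SELP encodes P-selectin, an adhesion receptor that moves from granules to the surface of activated platelets and endothelial cells. CD9 encodes a tetraspanin that is abundant on platelets and found on many other cells. TBXAS1 encodes thromboxane synthase, which makes the platelet agonist thromboxane A2 in platelets and in macrophages.

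Levels are the log2 of the scanner's processed signal minus the 75th percentile of the array, where 0 marks a spot as bright as that percentile and each unit is a 2-fold step. The level of a probe also depends on its sequence, so levels are compared between groups and not between genes. Between 51.3% and 69.4% of an array's spots were well above background, 0 were saturated, and replicate arrays correlated at 0.961 to 0.985 over all features. The number of arrays, 4 a group, limits the precision. ITGA2B, ITGB3, PPBP, SELP and CD9 were well above background on all 32 arrays. TBXAS1 was dim: in the order of the days it was well above background on 2, 1, 3 and 4 of the 4 control arrays and on 2, 2, 4 and 4 of the 4 runt arrays. The arrays of each day sat at 1 position of their slides, except that day 50 runt replicate 1 was the 1 array from slide 9, at the position of day 37 on the others, so day and position cannot be told apart. Slides 1 to 3 and slides 4 to 9 formed sets that each hold controls and runts of every day. The tissue was liver by its markers: the 6 measured hepatocyte genes, albumin among them, had a summed level from 10.40 to 11.92 over the 32 arrays (the log2 of their summed linear values).

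The first question is how the genes changed over gestation. In control fetuses ITGA2B, ITGB3, PPBP, SELP and CD9 fell between day 70 and day 110, by 2.54 to 3.86 fold, and TBXAS1 rose 2.80-fold. In runts there were falls of the same 5 genes by 2.39 to 5.02 fold and a rise of TBXAS1 of 2.67-fold. Between days, the call of a gene needed 2-fold or more and an adjusted p below 0.05. By that rule all 6 genes were called from day 70 to day 110 in controls, where 12.4% of all 28673 features were called (7.11% lower and 5.3% higher). All 6 were called in runts as well, against 11.1% of all features (6.8% lower and 4.31% higher). The 6 genes were chosen with earlier results of these data known, so these counts are no test of the set. The median change of the 6 genes was -1.61 in controls and -1.47 in runts, beside 0.038 and 0.055 over all features. In both courses the 4 day 110 arrays lay outside the range of the 4 day 70 arrays for each of the 6 genes, which held for 24.5% of all features in controls and 24.8% in runts. In whole liver, fewer cells of a type and less RNA per cell cannot be told apart.

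**Figure D1:**
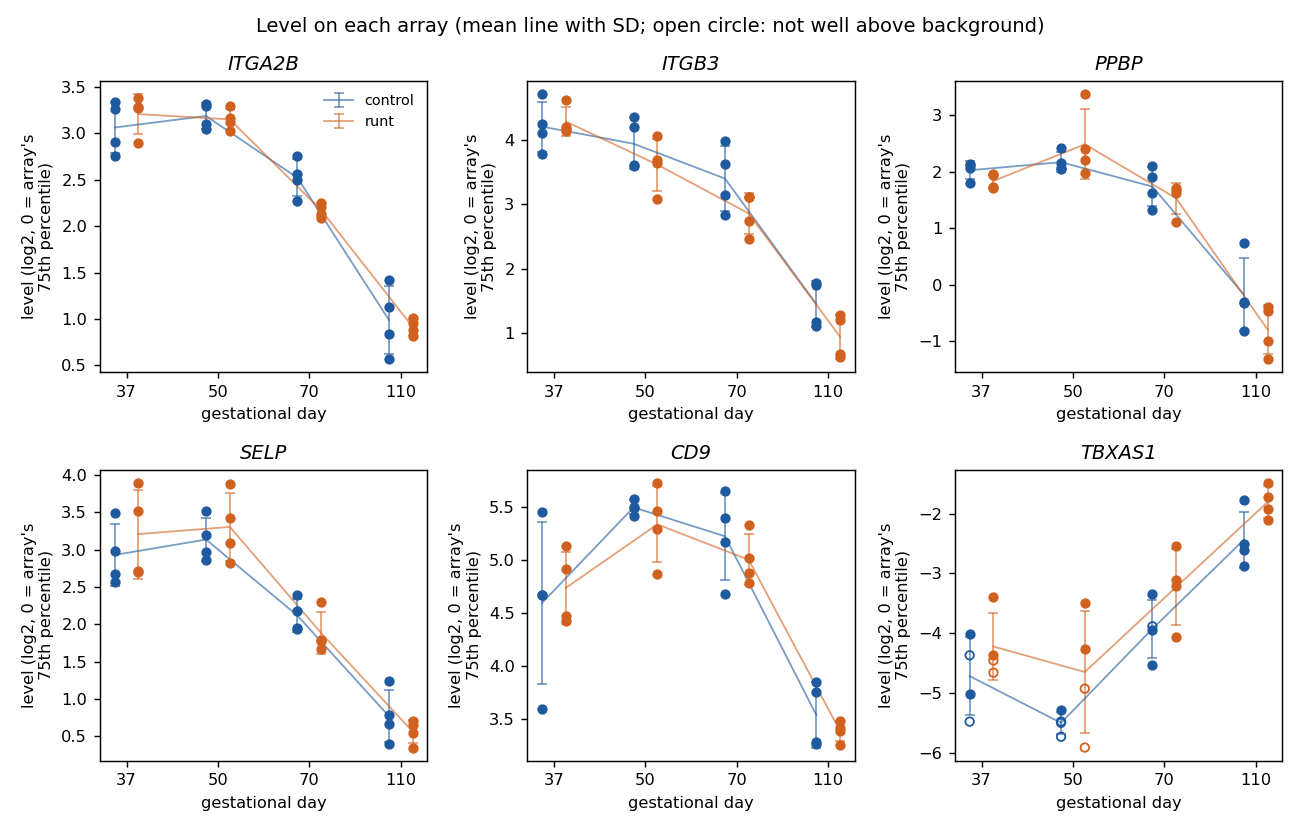
Level of each gene on each array (log2, 0 = the array's 75th percentile) against gestational day, controls in blue and runts in orange, with lines joining group means and bars of 1 SD (n = 4). ITGA2B, ITGB3, PPBP, SELP and CD9 are lowest at day 110 in both kinds of fetus, and TBXAS1 is highest there, with open circles where it was not well above background.

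ITGA2B, the alpha chain of the fibrinogen receptor, had its highest levels on the 2 early days. In controls ITGA2B stood at 3.26, 2.75, 2.90 and 3.33 on day 37 and at 3.10, 3.04, 3.31 and 3.29 on day 50. Controls of day 70 had 2.50, 2.27, 2.75 and 2.56, and those of day 110 had 0.84, 1.42, 1.13 and 0.57. All 4 day 70 arrays lay below all 4 day 50 arrays, and all 4 day 110 arrays lay far below both. In runts ITGA2B stood at 3.27, 2.89, 3.28 and 3.38 on day 37 and at 3.17, 3.02, 3.29 and 3.12 on day 50. Runts of day 70 had 2.13, 2.21, 2.25 and 2.09, and those of day 110 had 0.81, 0.96, 0.88 and 1.01. Their arrays also parted without overlap between days 50 and 70 and between days 70 and 110. From day 37 to day 50 the mean was nearly level, with a difference of 0.12 (SE 0.15, adjusted p = 0.703) in controls and -0.057 (SE 0.15, adjusted p = 0.847) in runts. From day 50 to day 70 the difference was -0.67 (SE 0.15, adjusted p = 0.00294) in controls and -0.98 (SE 0.15, adjusted p = 8.20e-05) in runts, both past the adjusted p and under 2-fold. ITGA2B then fell from 2.52 ± 0.20 (SD, n = 4) to 0.99 ± 0.37 in controls, a difference of -1.53 (SE 0.15, adjusted p = 1.50e-08), and from 2.17 ± 0.073 to 0.92 ± 0.088 in runts, a difference of -1.26 (SE 0.15, adjusted p = 3.70e-07). Over the whole span from day 37 to day 110 the fall was 4.20-fold in controls and 4.89-fold in runts. In the runts the step to day 70 lay so near 2-fold that it passed both thresholds without day 50 runt replicate 2 (-1.02) or without day 70 runt replicate 3 (-1.004), with the slide as a block (-1.01) and in the authors' deposited log2 table (-1.21).

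ITGB3, the beta chain of the same receptor, was lower at each later day by its group means. In controls ITGB3 stood at 4.24, 3.77, 4.10 and 4.71 on day 37 and at 3.61, 3.60, 4.35 and 4.21 on day 50. Controls of day 70 had 2.84, 3.14, 3.99 and 3.63, and those of day 110 had 1.17, 1.75, 1.77 and 1.11. Arrays of neighbouring days overlapped up to day 70, and the day 110 arrays lay below every earlier one. In runts ITGB3 stood at 4.14, 4.18, 4.20 and 4.63 on day 37 and at 3.08, 3.64, 4.06 and 3.68 on day 50. Runts of day 70 had 2.47, 2.74, 3.12 and 3.12, and those of day 110 had 0.63, 0.68, 1.28 and 1.21. Here days 37 and 50 did not overlap, days 50 and 70 overlapped on the edge, and day 110 again lay below all others. The step from day 37 to day 50 was -0.26 (SE 0.26, adjusted p = 0.605) in controls and -0.67 (SE 0.26, adjusted p = 0.0813) in runts, and neither passed. Between days 50 and 70 it was -0.54 (SE 0.26, adjusted p = 0.127) in controls, not past the test, and -0.76 (SE 0.26, adjusted p = 0.0326) in runts, past the adjusted p and under 2-fold. ITGB3 fell from 3.40 ± 0.51 (SD, n = 4) to 1.45 ± 0.36 in controls, -1.95 (SE 0.26, adjusted p = 1.66e-06), and from 2.86 ± 0.32 to 0.95 ± 0.34 in runts, -1.91 (SE 0.26, adjusted p = 2.11e-06). Its fall from day 37 to day 110, 6.74-fold in controls and 10.1-fold in runts, was the largest fall of the 6 genes over that span on these values.

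Since both integrin chains have other partners or kin on the array, their changes were set against those of ITGAV, the alpha chain that also pairs with beta-3, and ITGB1, the widely expressed beta-1 chain. These comparisons were chosen after the values had been seen, with 12 exact two-sided permutation tests of the within-array difference in all, for which 0.0286 is the smallest p that 4 arrays against 4 can give. Between day 70 and day 110 ITGAV changed by -0.44 (SE 0.13, adjusted p = 0.0135) in controls and -0.37 (SE 0.13, adjusted p = 0.0362) in runts, past the adjusted p and under 2-fold. ITGB1 was at 0.0098 (SE 0.17, adjusted p = 0.976) in controls and 0.16 (SE 0.17, adjusted p = 0.546) in runts and did not pass. ITGB3 minus ITGAV changed by -1.51 in controls and -1.54 in runts. ITGA2B minus ITGAV changed by -1.09 in controls and -0.88 in runts. ITGB3 minus ITGB1 changed by -1.96 in controls and -2.07 in runts. In these 6 comparisons the day 70 and day 110 arrays did not overlap (exact permutation p = 0.0286 in each, 0.0429 after Benjamini-Hochberg over the 12). ITGA2B minus ITGB3 was at 0.42 in controls (exact permutation p = 0.0857) and 0.66 in runts (exact permutation p = 0.0571), with overlapping arrays, and the tests did not pass. Without control day 70 replicate 1 or replicate 3, ITGA2B minus ITGAV was -1.06 or -1.05, no longer below an exact p of 0.05 but still without overlap. Without replicate 1, ITGA2B minus ITGB3 was 0.60 and below an exact p of 0.05, unadjusted. With 3 arrays against 4, arrays without overlap can miss 0.05, so such a lost call does not by itself show an unstable difference.

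PPBP, the alpha granule chemokine precursor, had its highest group means on day 50 and its lowest on day 110. In controls PPBP stood at 2.13, 1.79, 2.06 and 2.11 on day 37 and at 2.16, 2.42, 2.06 and 2.04 on day 50. Controls of day 70 had 1.91, 1.31, 2.10 and 1.62, and those of day 110 had -0.32, 0.73, -0.32 and -0.81. The day 110 control arrays ranged over more than 1 log2 unit, with replicate 2 the highest, and even that one lay below every day 70 array. In runts PPBP stood at 1.96, 1.72, 1.73 and 1.94 on day 37 and at 3.37, 2.20, 2.40 and 1.97 on day 50. Runts of day 70 had 1.62, 1.72, 1.67 and 1.12, and those of day 110 had -0.47, -0.40, -1.32 and -0.998. The first day 50 runt value, from the array of slide 9, was the highest PPBP level of all 32 arrays. Between days 37 and 50 PPBP was at 0.14 (SE 0.27, adjusted p = 0.822) in controls and 0.65 (SE 0.27, adjusted p = 0.108) in runts, and neither passed the test. Between days 50 and 70 it was at -0.43 (SE 0.27, adjusted p = 0.253) in controls, not past the test, and -0.96 (SE 0.27, adjusted p = 0.0117) in runts, past the adjusted p and just under 2-fold. PPBP fell from 1.74 ± 0.35 (SD, n = 4) to -0.18 ± 0.65 in controls, -1.92 (SE 0.27, adjusted p = 4.92e-06), and from 1.53 ± 0.28 to -0.80 ± 0.44 in runts, -2.33 (SE 0.27, adjusted p = 2.07e-07). The fall over the whole span was 4.61-fold in controls and 6.20-fold in runts. The runt step to day 70 passed 2-fold when any 1 of 4 arrays was left out: day 50 runt replicate 2 (-1.05), day 50 runt replicate 4 (-1.13), day 70 runt replicate 2 (-1.02) and day 70 runt replicate 3 (-1.003). It passed in the deposited table as well (-1.16). In the other direction, the day 50 runt mean holds the slide 9 array at 3.37, while the other arrays lay between 1.97 and 2.40. Without that array the runt rise from day 37 and the runt fall to day 70 are both smaller.

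SELP, which encodes P-selectin, fell in 2 steps. In controls SELP stood at 3.49, 2.56, 2.68 and 2.99 on day 37 and at 3.20, 3.52, 2.97 and 2.86 on day 50. Controls of day 70 had 1.95, 2.18, 2.40 and 1.94, and those of day 110 had 0.66, 1.23, 0.79 and 0.40. The day 37 and day 50 arrays overlapped and the later ones stepped down. In runts SELP stood at 3.90, 2.72, 2.70 and 3.53 on day 37 and at 3.88, 3.10, 3.43 and 2.82 on day 50. Runts of day 70 had 2.30, 1.79, 1.77 and 1.67, and those of day 110 had 0.65, 0.35, 0.54 and 0.71. In runts too the first 2 days overlapped, and in both courses every day 70 array lay below every day 50 array, and every day 110 array lay below every day 70 array. From day 37 to day 50 the difference was 0.21 (SE 0.26, adjusted p = 0.703) in controls and 0.10 (SE 0.26, adjusted p = 0.846) in runts, and neither passed. SELP fell by 2.03-fold from day 50 to day 70 in controls, -1.02 (SE 0.26, adjusted p = 0.00562), and by 2.68-fold in runts, -1.42 (SE 0.26, adjusted p = 3.21e-04). It fell again from 2.12 ± 0.22 (SD, n = 4) to 0.77 ± 0.35 in controls, -1.35 (SE 0.26, adjusted p = 2.22e-04), and from 1.88 ± 0.28 to 0.56 ± 0.16 in runts, -1.32 (SE 0.26, adjusted p = 3.04e-04). The fall over the whole span was 4.47-fold in controls and 6.27-fold in runts. Set against ITGA2B, its late change gave no call: SELP minus ITGA2B was at 0.18 in controls (exact permutation p = 0.229) and -0.065 in runts (exact permutation p = 0.743), with overlapping arrays. That comparison passed in controls without day 70 replicate 2, at 0.29. The control step to day 70 was at the 2-fold limit and dropped under it without day 50 control replicate 2 (-0.89), day 70 control replicate 1 (-0.96) or day 70 control replicate 4 (-0.96), with adjusted p from 0.0162 to 0.0256. Under median centring the control step was -0.83, also under 2-fold (adjusted p = 0.0134 in limma).

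CD9, the tetraspanin, had its highest group means on day 50 and its lowest on day 110. In controls CD9 stood at 5.45, 4.67, 3.59 and 4.67 on day 37 and at 5.42, 5.50, 5.58 and 5.49 on day 50. Controls of day 70 had 5.65, 4.68, 5.39 and 5.17, and those of day 110 had 3.76, 3.26, 3.85 and 3.29. The day 37 control arrays were the most spread group of CD9 (SD 0.76), and 1 of them lay within the day 110 range. In runts CD9 stood at 4.92, 5.13, 4.48 and 4.43 on day 37 and at 5.73, 4.87, 5.29 and 5.46 on day 50. Runts of day 70 had 5.02, 4.88, 4.78 and 5.33, and those of day 110 had 3.49, 3.39, 3.26 and 3.42. Runt arrays of day 110 lay below those of every earlier day. From day 37 to day 50 CD9 was at 0.90 (SE 0.26, adjusted p = 0.0361) in controls, past the adjusted p and under 2-fold, and at 0.60 (SE 0.26, adjusted p = 0.126) in runts, not past it. Between days 50 and 70 CD9 was at -0.27 (SE 0.26, adjusted p = 0.469) in controls and -0.33 (SE 0.26, adjusted p = 0.379) in runts, and neither passed. CD9 fell from 5.22 ± 0.41 (SD, n = 4) to 3.54 ± 0.31 in controls, -1.68 (SE 0.26, adjusted p = 1.79e-05), and from 5.003 ± 0.24 to 3.39 ± 0.10 in runts, -1.61 (SE 0.26, adjusted p = 3.38e-05). The other 2 probes of CD9 fell too over that interval, with differences of -1.52 and -1.75 in controls and of -1.74 and -1.63 in runts. They had the calls of the first probe in all 8 comparisons between days. From day 37 to day 50 in controls they were at 0.75 and 0.65 and, unlike the first probe, did not pass the adjusted p in limma (0.124 and 0.114). In controls the difference between days 37 and 110, -1.06 (SE 0.26, adjusted p = 0.00144), was under 2-fold without day 37 control replicate 1 (-0.77), day 110 control replicate 2 (-0.97) or day 110 control replicate 4 (-0.97), and with the slide as a block (-0.86).

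TBXAS1, which encodes thromboxane synthase, went the other way. In controls TBXAS1 stood at -5.48, -5.01, -4.01 and -4.37 on day 37 and at -5.29, -5.73, -5.48 and -5.50 on day 50. Controls of day 70 had -4.53, -3.95, -3.34 and -3.88, and those of day 110 had -2.60, -2.50, -1.78 and -2.88. All 4 day 70 arrays lay above all 4 day 50 arrays, and all 4 day 110 arrays lay above both. In runts TBXAS1 stood at -4.46, -4.37, -4.66 and -3.40 on day 37 and at -3.49, -4.26, -5.91 and -4.93 on day 50. Runts of day 70 had -3.10, -3.21, -2.54 and -4.06, and those of day 110 had -1.49, -2.10, -1.72 and -1.93. The day 50 runt arrays were the most spread, reaching from the lowest TBXAS1 value of the series to 1 within the day 70 range. Between days 37 and 50 the difference was -0.78 (SE 0.40, adjusted p = 0.246) in controls and -0.43 (SE 0.40, adjusted p = 0.516) in runts, and neither passed. TBXAS1 rose from day 50 to day 70 in controls, 1.57 (SE 0.40, adjusted p = 0.00596), and in runts, 1.42 (SE 0.40, adjusted p = 0.0102). The size of that rise is uncertain, since 1 of 4 control arrays and 2 of 4 runt arrays of day 50 were well above background. TBXAS1 passed the filter on dim probes through groups of days 70 and 110 alone, which favours a rise from the earlier days. It rose again from -3.93 ± 0.49 (SD, n = 4) to -2.44 ± 0.47 in controls, 1.49 (SE 0.40, adjusted p = 0.00620), and from -3.23 ± 0.63 to -1.81 ± 0.26 in runts, 1.42 (SE 0.40, adjusted p = 0.00962). Over the whole span it rose 4.85-fold in controls and 5.33-fold in runts, from day 37 groups with 2 of 4 arrays well above background. PTGS1, the cyclooxygenase that makes the substrate of thromboxane synthase, was at -0.14 (SE 0.22, adjusted p = 0.687) in controls and -0.24 (SE 0.22, adjusted p = 0.476) in runts from day 70 to day 110 and did not pass. TBXAS1 minus PTGS1 rose by 1.63 in controls and 1.66 in runts, without overlap (exact permutation p = 0.0286 in both, 0.0429 after Benjamini-Hochberg over the 12 tests). PTGS1 was chosen after its values were seen, and TBXAS1 alone already parted the 2 days without overlap. The comparison therefore adds little to the rise of TBXAS1. Without control day 70 replicate 1 the control difference was 1.54 and no longer passed, though still without overlap. With the background correction named next it was 0.62 and did not pass in controls. Near background the size depends on the background correction. The other correction, normexp with quantile normalization, added an offset of 50 to each signal, which narrows the log2 differences of dim probes. With it the rise from day 70 to day 110 was 0.53 in controls and 0.63 in runts, past the adjusted p and under 2-fold. The control difference from day 50 to day 70 was then 0.31 (adjusted p = 0.0504). Under that correction the difference from day 37 to day 110 was 0.62 in controls and 0.81 in runts, under 2-fold as well. Without day 50 runt replicate 3 the runt rise to day 70 was 1.00 and did not pass (adjusted p = 0.0616).

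Set side by side, the earlier intervals held fewer calls. From day 37 to day 50, 0 of the 6 genes were called in controls, where 3.42% of all features were, and 0 in runts, against 5.83%. At an unadjusted p under 0.05 alone, 1 gene of 6 passed in controls, beside 22.6% of all features, and 3 in runts, beside 29.7%. Without day 37 control replicate 1, or in the deposited table, CD9 was called in controls, at 1.18 and 1.03. From day 50 to day 70, SELP lower and TBXAS1 higher made 2 of 6 genes called in controls, beside 7.66% of all features (4.76% lower and 2.89% higher), and the same genes made 2 of 6 in runts, beside 7.98% (4.79% lower and 3.19% higher). Both counts moved with single arrays. The control count was 1 without day 50 control replicate 2, day 70 control replicate 1 or day 70 control replicate 4. The runt count was 4 without day 50 runt replicate 2 or day 70 runt replicate 3, and 1 without day 50 runt replicate 3. Over the whole span from day 37 to day 110 all 6 genes were called in controls and in runts, 5 lower and 1 higher. Of all features 29.3% were called over that span in controls (14.3% lower and 15% higher) and 27.1% in runts (12.2% lower and 14.8% higher). Neighbouring intervals share the arrays of the day between them. Controls and runts share no array, but they share litters, slides and the fitted spread, so their courses are not independent repeats.

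**Figure D2:**
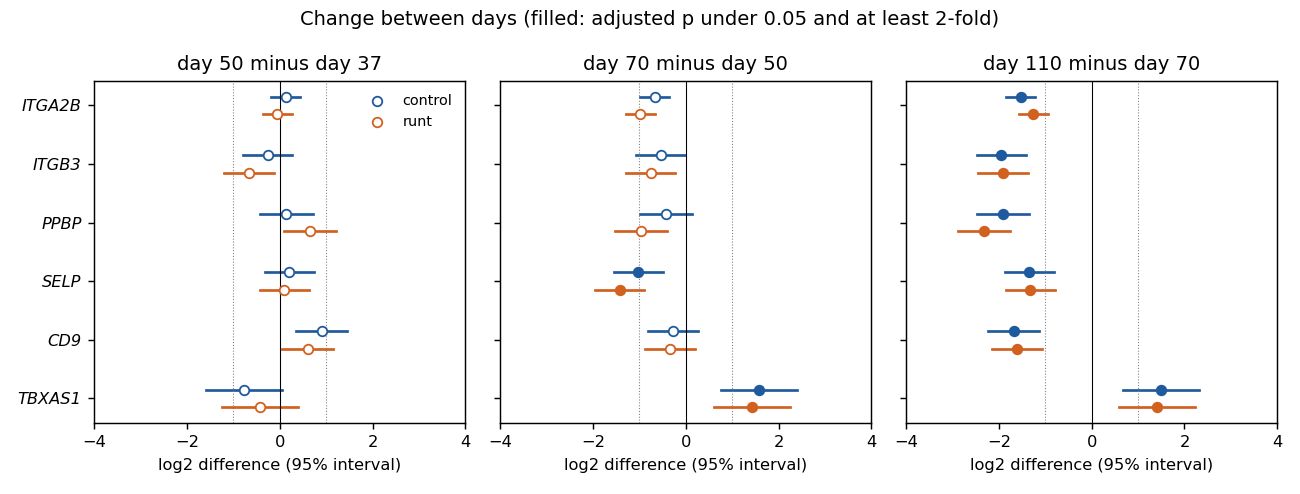
Log2 difference of each gene over the 3 intervals with its 95% interval from the fit, controls in blue and runts in orange, and dotted lines at 2-fold. No gene is called from day 37 to day 50, SELP and TBXAS1 are called from day 50 to day 70, and all 6 are called from day 70 to day 110, with TBXAS1 alone to the right of 0.

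Among all features the late falls lay in the lower tail. In controls 2.85% of the 28673 features had a difference as low as that of ITGB3 or lower between days 70 and 110. The share was 2.94% for PPBP, 3.78% for CD9, 4.53% for ITGA2B and 5.40% for SELP. As much of a rise as that of TBXAS1 was seen in 2.61% of features. In runts the lowest of these shares was 2.21% for PPBP and the highest 5.96% for ITGA2B, with 2.40% for TBXAS1. The 6 genes thus lay in the tails of the distribution, with many other features beside them on each side. As the 6 were chosen with earlier results of these data known, their place there is a description and no test.

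**Figure D3:**
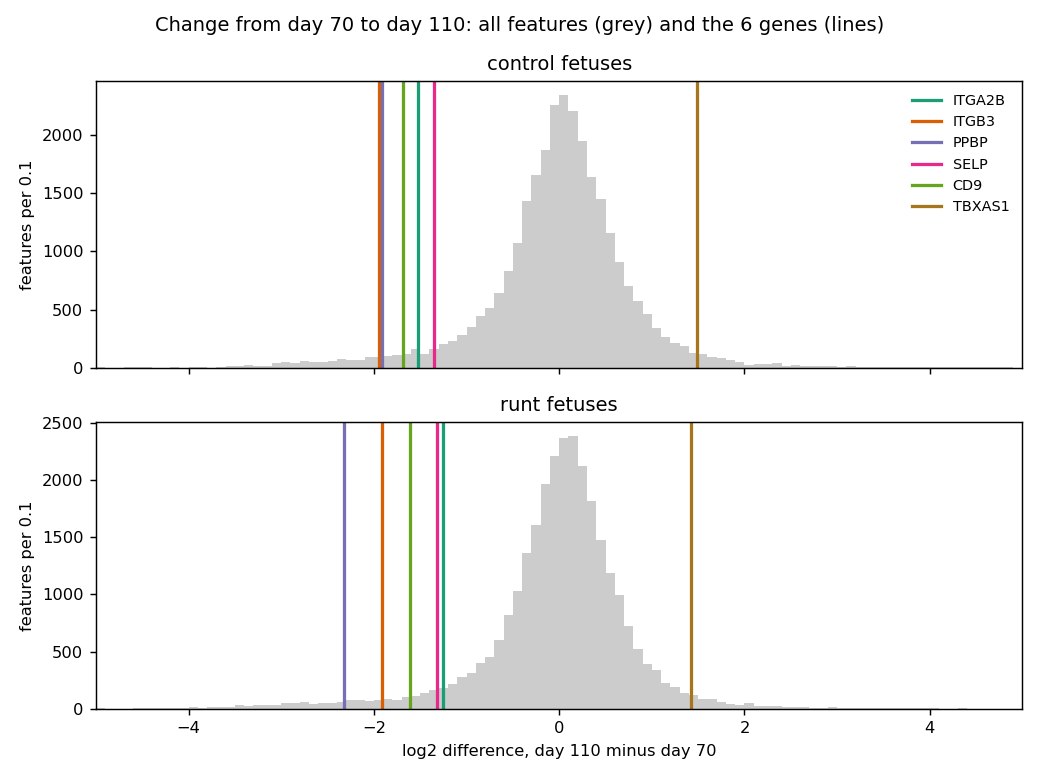
Number of features (vertical axis) by their log2 difference between day 110 and day 70 in bins of 0.1, controls above and runts below, with a line for each of the 6 genes. The bulk of the features lies near 0, with 5 genes in the left tail between -2.33 and -1.26 and TBXAS1 in the right tail at 1.49 and 1.42.

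Within the slide sets the late falls kept their sign. ITGA2B differed between day 70 and day 110 by -2.09 in controls within slides 1 to 3 and -1.25 within slides 4 to 9, and by -1.15 and -1.31 in runts. ITGB3 differed by -2.70 and -1.43 in controls and by -1.87 and -2.12 in runts. For PPBP the values were -2.67 and -1.58 in controls and -2.27 and -2.10 in runts. These 3 genes, and CD9 (-1.99 and -1.54 in controls, -1.99 and -1.45 in runts), were called in both sets. SELP was called in both sets in controls, at -1.77 and -1.17. In runts SELP was called within slides 4 to 9 (-1.45) and not within slides 1 to 3 (-1.04, adjusted p = 0.236). TBXAS1 was called within slides 4 to 9 in controls (1.95) and not within slides 1 to 3 (0.73, adjusted p = 0.432). In runts it was called in neither set, at 2.24 (adjusted p = 0.0741) and 1.15 (adjusted p = 0.198). From day 50 to day 70 in controls neither call was met within a set: SELP was at -0.75 and -1.29, and TBXAS1 at 1.88 and 1.27. In runts SELP was called within slides 4 to 9 (-1.51) and not within slides 1 to 3 (-1.16), and so was TBXAS1 (1.61 and 0.87). A set holds 1 to 3 arrays of a group. Slides 1 to 3 hold 1 array each of day 37 controls, day 110 controls, day 50 runts and day 70 runts, so there the spread comes from the other groups and the lone array is assumed to vary like them. From day 50 to day 70 in runts that set compares 1 array with 1, so its missed calls say nothing on stability.

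Markers of other cells of the fetal liver moved over the same interval, in which 7.11% of all features fell and 5.3% rose in controls. All 4 measured erythroid genes fell in controls from day 70 to day 110 (HBE1, EPOR, RHCE and TFRC, median difference -3.32), and their summed level went from 5.76 to 6.53 at day 70 down to 1.44 to 3.76 at day 110. All 6 measured cell cycle genes fell (median -2.83), with a summed level of 6.26 to 6.72 and then 3.04 to 4.50. Of 5 measured granulocyte genes 4 fell (median -2.16). Their summed level went from 7.65 to 8.29 down to 5.60 to 6.03. Blood stem and progenitor markers gave 1 fall of 4 (KIT, which with GATA2 is also on the pathway lists), with a summed level of 3.05 to 4.06 and then 2.07 to 2.88. Of 6 Kupffer cell and monocyte genes 2 rose, CD14 and CD163 (median 0.83), and their summed level went from 5.46 to 5.94 up to 6.49 to 6.83, beside the rise of TBXAS1. Of 7 endothelial genes 2 rose, CAV1 and FCGR2B (median 0.69), with a summed level of 4.78 to 4.97 and then 5.66 to 6.09, beside the fall of SELP. Lymphocyte genes gave 4 rises and 1 fall of 10 (median 0.42), stellate cell and fibroblast genes 1 rise of 3 (median 0.63), and hepatocyte genes 0 of 6 (median -0.15). In runts 4 of 4 erythroid, 6 of 6 cell cycle and 5 of 5 granulocyte genes fell, while 2 of 6 Kupffer cell and monocyte, 3 of 7 endothelial and 2 of 10 lymphocyte genes rose, beside 6.8% of all features lower and 4.31% higher. From day 50 to day 70 in controls, when SELP fell and TBXAS1 rose, 1 of 4 erythroid genes fell (HBE1, -1.52), 4 of 5 granulocyte genes rose (median 1.77), and 2 of 6 Kupffer cell and monocyte genes rose, CD14 (1.65) and SIGLEC1 (1.77), beside 4.76% of all features lower and 2.89% higher. The part of these cells in the changes of the 6 genes was not tested.

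The other genes known for megakaryocytes and platelets were read from 7 lists of 109 symbols, of which 36 were on the array and 31 were measured. In controls from day 70 to day 110, 1 of the 31 rose, 4 fell and 26 were not called (median -0.14), where 12.4% of all features were called. In runts over the same interval 1 rose, 4 fell and 26 were not called (median 0.043), against 11.1% of all features. These shares are near the background and are no result about the lists. Of 9 genes for thrombopoietin and cytokine signals, 3 fell in both courses. KIT, the stem cell factor receptor, was at -1.74 (SE 0.40, adjusted p = 0.00165) in controls and -1.56 (SE 0.40, adjusted p = 0.00479) in runts. STAT5A, a transcription factor below cytokine receptors, was at -1.53 (SE 0.22, adjusted p = 4.26e-06) in controls and -1.36 (SE 0.22, adjusted p = 2.67e-05) in runts. CXCR4, the receptor of the chemokine CXCL12, was at -1.16 (SE 0.17, adjusted p = 8.25e-06) in controls and -1.08 (SE 0.17, adjusted p = 2.40e-05) in runts. IL6, the cytokine interleukin 6, rose in both. It was well above background on 1 of 4 control arrays at day 70 and on 4 of 4 at day 110. The fitted difference was 2.31 (SE 0.55, adjusted p = 0.00242), and its size is uncertain for that reason. In runts it was above background on 0 of 4 and then 4 of 4 arrays, which gives a rise of at least 2.65-fold against the background limit (adjusted p = 0.00352). JAK2, the kinase of the thrombopoietin receptor, was at -0.82 (SE 0.17, adjusted p = 5.64e-04) in controls, past the adjusted p and under 2-fold. Of 7 surface receptors F11R, a junctional adhesion molecule of platelets, fell in controls (-1.01, SE 0.26, adjusted p = 0.00454), where it was well above background on 3 of 4 arrays of each day. CD36, a scavenger and thrombospondin receptor, fell in runts (-1.40, SE 0.49, adjusted p = 0.0363), and in controls was at -1.07 (SE 0.49, adjusted p = 0.108), not past the test. In the test of the difference in change between runts and controls 0 of the 31 genes passed, F11R and CD36 included.

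The remaining lists held no call over that interval. Among transcription factors 2 of 13 were measured: GATA2, a factor of blood progenitors and megakaryocytes, was at -0.92 (SE 0.22, adjusted p = 0.00258) in controls and -0.50 (SE 0.22, adjusted p = 0.106) in runts, and ETS1 at 0.23 and 0.24. The 6 granule contents all lay above 0 in both courses (median 0.34 in controls and 0.44 in runts) with 0 called, while PPBP and SELP, granule proteins too, fell. The largest differences among them were those of VEGFA, the vascular growth factor (0.89, SE 0.28, adjusted p = 0.0186 in controls), and F5, coagulation factor V (0.71, SE 0.18, adjusted p = 0.00404), which hepatocytes also make. VEGFA was called earlier, from day 50 to day 70 in controls (1.05, SE 0.28, adjusted p = 0.00816), the 1 call of the 31 in that interval. The 1 measured integrin ligand, VTN or vitronectin, was at 0.13 (SE 0.15, adjusted p = 0.585) in controls and had risen from day 37 to day 110 (1.68, SE 0.15, adjusted p = 4.86e-10). The 3 thromboxane and agonist receptor genes had a median of -0.14 in controls and the 3 genes of integrin activation and cytoskeleton -0.19, with SYK, a kinase of platelet receptors, at -0.79 (SE 0.17, adjusted p = 6.94e-04) in controls. Over the whole span from day 37 to day 110, 7 of the 31 rose and 7 fell in controls and 8 rose and 6 fell in runts, where 29.3% and 27.1% of all features were called.

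**Figure D4:**
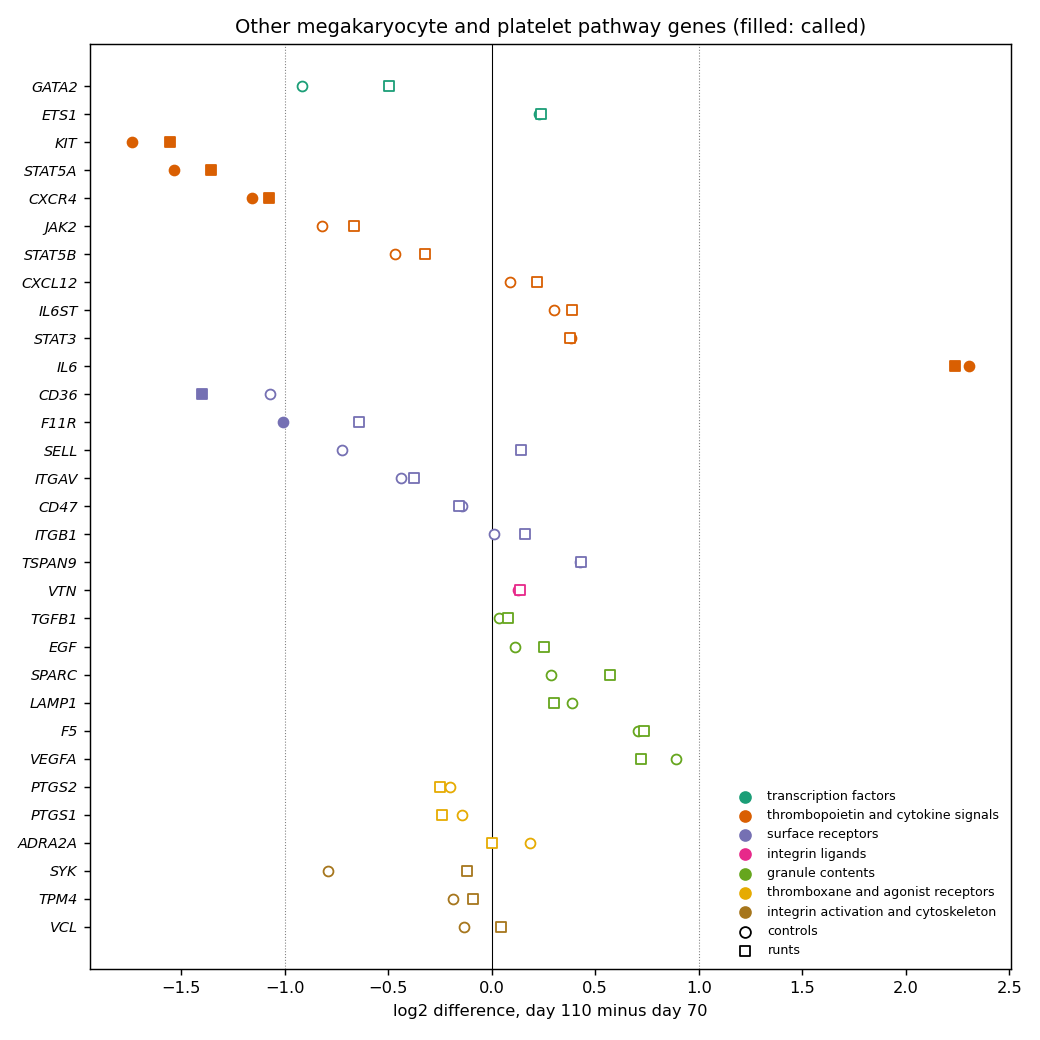
Log2 difference from day 70 to day 110 of the 31 other measured genes, coloured by list, with circles for controls, squares for runts, filled symbols for calls and dotted lines at 2-fold. KIT, STAT5A, CXCR4, F11R and CD36 hold the calls on the left and IL6 the calls on the right, where the square of IL6 is measured against arrays on which it was not well above background.

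The study's other comparison is that of runts with their control littermates. On each of the 4 days 0 of the 6 genes passed an adjusted p of 0.05 in limma. Over all features 0% passed on day 37, 0.0663% on day 50, 0% on day 70 and 0.014% on day 110. At an unadjusted p under 0.05 the counts of the 6 were 0 on day 37, 1 on day 50 (TBXAS1), 2 on day 70 (ITGA2B and ITGB3) and 1 on day 110 (PPBP), beside 2.53%, 7.38%, 1.82% and 4.40% of all features. ITGA2B on day 70 was the 1 case in which runt and control arrays did not overlap (-0.35, SE 0.15, adjusted p = 1.00, 95% interval -0.66 to -0.033), which held for 1.09% of all features that day. ITGB3 on day 70 was at -0.54 (SE 0.26, 95% interval -1.08 to -0.0076, adjusted p = 1.00), with overlapping arrays. PPBP on day 110 was at -0.62 (SE 0.27, 95% interval -1.18 to -0.055, adjusted p = 1.00), also with overlap. Within slides 1 to 3 and slides 4 to 9 the day 70 difference of ITGA2B was -0.56 and -0.19, and the day 110 difference of PPBP was -0.34 and -0.47.

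Averaged over the 4 days, 0 of the 6 genes passed, beside 0.248% of all features. For TBXAS1 the mean was higher in runts on all 4 days, by 0.49, 0.85, 0.70 and 0.63, with overlapping arrays on each. On days 37 and 50 these are differences between groups with 1 or 2 of 4 arrays well above background, so their size is uncertain. The mean difference of TBXAS1 was 0.67 (SE 0.20, 95% interval 0.26 to 1.08, adjusted p = 0.168). Without day 50 runt replicate 3, an array on which it was not well above background, the difference was 0.77 and passed (adjusted p = 0.0453). With the slide as a block, which leaves the array of slide 9 (day 50 runt replicate 1) out of the estimate, the day 50 difference of TBXAS1 was 0.18 and the mean 0.55. Within slides 1 to 3 the mean difference of TBXAS1 was 0.38 and within slides 4 to 9 0.79. For ITGB3 the mean difference was -0.32 (SE 0.13, 95% interval -0.59 to -0.056, adjusted p = 0.402), with lower means in runts on days 50, 70 and 110 and a difference of 0.079 on day 37. For the other genes the 95% interval of the mean difference ran over 0: -0.24 to 0.079 for ITGA2B, -0.46 to 0.11 for PPBP, -0.26 to 0.27 for SELP and -0.37 to 0.17 for CD9. A 2-fold difference between runts and controls lies outside each of these 4 intervals.

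The runt effect did not pass a test of difference between days (F-test in limma) for any of the 6 genes, with unadjusted p from 0.146 for PPBP to 0.937 for TBXAS1 and 0.00349% of all features called. The change from day 70 to day 110 was compared between runts and controls directly as well. The difference in change was 0.27 for ITGA2B, 0.036 for ITGB3, -0.41 for PPBP, 0.027 for SELP, 0.070 for CD9 and -0.069 for TBXAS1. None of the 6 passed in limma, with 0 at an unadjusted p under 0.05 and 0% of all features called. The widest 95% interval, that of TBXAS1, was -1.23 to 1.09, and the narrowest, that of ITGA2B, -0.17 to 0.72. Of the pathway genes 0 of 31 passed between runts and controls on any day or in the mean. Among the markers of other cells ALB, serum albumin, was the 1 gene that passed in the mean over days, lower in runts at -1.53 (SE 0.29, adjusted p = 0.0223). Day 110 summed levels of erythroid genes were 0.84 to 2.91 in runts beside 1.44 to 3.76 in controls, and those of granulocyte genes 3.87 to 5.75 beside 5.60 to 6.03, and their part in the runt values was not tested.

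**Figure D5:**
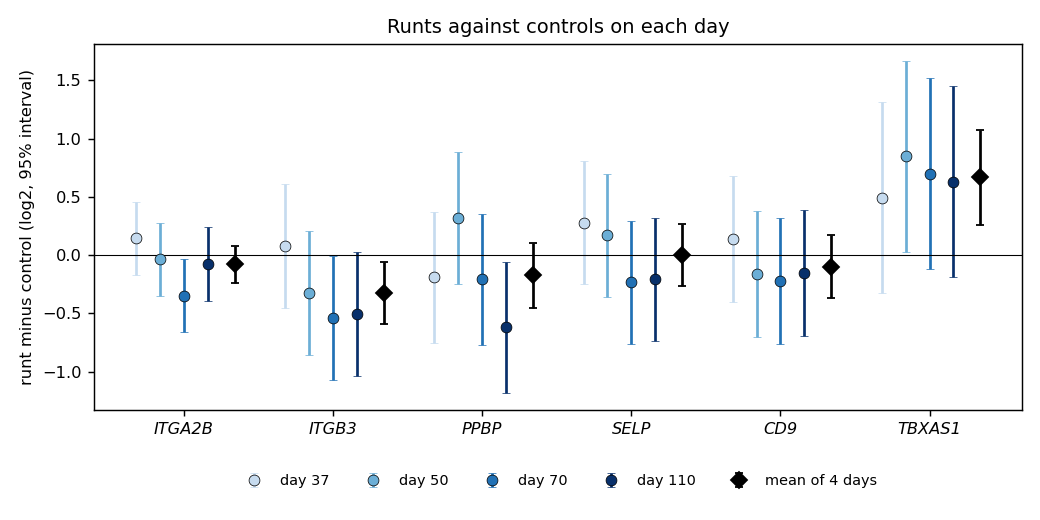
Runt minus control level of each gene (log2) on each day as circles and averaged over the 4 days as diamonds, with 95% intervals from the fit. Most intervals span 0. The points of TBXAS1 lie above 0 on all 4 days, with intervals that include 0 on days 37, 70 and 110. The interval of the mean over days lies above 0 for TBXAS1 and below 0 for ITGB3, and no difference passed the adjusted p.

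Likeness of profiles across the 8 groups was measured as the root mean square difference (log2) between profiles of the 8 group means, each centred on its own mean, and is a description over groups that share their days. ITGA2B and SELP were the closest pair of the 6 genes, at 0.18. Many genes outside the 6 lay nearer to ITGA2B than ITGB3, PPBP or CD9 did: among the 1595 genes compared, SELP was the 5th nearest to ITGA2B, ITGB3 the 43rd (0.34), PPBP the 44th (0.34) and CD9 the 97th (0.46). CD9 was the 143rd nearest to ITGB3 (0.71). TBXAS1 was far from all 5 others, at 1.84 to 2.29. Of the other 1595 genes with a symbol, those nearest to ITGA2B were CMAH (0.11), LDB1 (0.12) and DBF4 (0.17). Nearest to ITGB3 were SCG5 (0.14), RAB27A (0.15) and CDKN3 (0.19), and nearest to PPBP were HDC (0.20), RYR1 (0.26) and VDAC3 (0.28), of which RYR1 was well above background on 0 of the day 110 arrays. The genes nearest to SELP were ITGA2B (0.18), CMAH (0.21) and CD36 (0.24). CD9 had as nearest genes KIT (0.27), LIPE (0.27) and MAOB (0.29). For TBXAS1 the nearest were GATA3 (0.31), CD2 (0.38) and P4HA1 (0.40), of which CD2 was well above background on day 110 arrays alone.

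Ordered by group mean, ITGA2B, ITGB3, PPBP, SELP and CD9 shared the lower end of the order: day 110 runts were lowest and day 110 controls next, with overlapping arrays. For ITGA2B, ITGB3, PPBP and SELP the day 70 runts and day 70 controls came next in that order, and the day 110 controls did not overlap with the day 70 runts. ITGA2B and ITGB3 were highest in day 37 runts, PPBP and SELP in day 50 runts and CD9 in day 50 controls, each overlapping with the group next in order. TBXAS1 had its order from day 110 runts down to day 50 controls, and each neighbour in it overlapped with the next.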

How the data were processed

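Total RNA of 32 pig fetal livers was hybridised to 1-colour Agilent arrays. The deposited scanner files hold intensity values (processed signal) made with Feature Extraction 10.7.3.1 per the file headers, with background already subtracted. The deposited log2 table holds the authors' normalized values, and the submitters' processing notes name Partek (for its version and settings: not given in the sources used here). The table's correlation with each array's scanner values was 0.993 to 1.00 and its array medians lay between 5.148 and 5.153. It is on a log2 scale in the direction of the signal and alike in centre across arrays, and how it was centred and background-corrected stays unknown. From the scanner files, control and outlier spots were left out, the log2 of the processed signal was taken minus each array's 75th percentile, and the spots of a probe were averaged. Probes well above background on at least 3 of 4 arrays of 1 or more groups were kept. The highest-mean probe stood for each gene with a symbol, and every probe without a symbol was its own feature. This gave 28673 features, 1596 of them with a symbol, so shares of all features are mostly shares of probes without a symbol. One mean for each of the 8 groups was fitted over all 32 arrays with limma 3.58.1 (R 4.3.3), with Benjamini-Hochberg adjustment over all features of a comparison. A call between days needed an adjusted p under 0.05 and at least 2-fold, and a call between runts and controls an adjusted p under 0.05. The fit was tested on simulated data. Gene names came from the probes' transcript accessions through RefSeq, which gave 2683 of 43603 probes a symbol. All 6 genes are described in every comparison, and of the pathway lists those called from day 70 to day 110 in controls and at most 4 others of a list by size of change. CD36, called in runts alone, and the partners ITGAV, ITGB1 and PTGS1 were chosen after their values were seen. The genes and lists were chosen with earlier results of these data known. Alternatives were the deposited table, normexp background correction (offset 50) with quantile normalization, median centring and other filters. Further ones were slide or replicate number as a block, each slide set alone, the groups of a comparison alone, and each array left out in turn. The labels do not tie replicate numbers to litters. No sequences are shown because none were used here.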

Additional observations from a re-analysis of the deposited data

Results flagged for a closer look

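Of 48 groups of 4 arrays (6 genes in 8 groups), 2 held an array whose gap to the nearest other array exceeded the critical share of the group's range in Dixon's test (95%), and chance gives about 1 such group in 20. ITGB3 in day 37 runts was highest on replicate 4, at 4.63, while the other 3 arrays lay between 4.14 and 4.20. PPBP in day 70 runts was lowest on replicate 4, at 1.12, while the other 3 arrays lay between 1.62 and 1.72.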

How the results depend on the processing

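The counts of called genes from day 70 to day 110 and from day 37 to day 110 were 6 in controls and in runts, and lay between 4 (runts from day 70 to day 110 within slides 1 to 3) and 6 under the alternatives run. With the replicate number as a block the counts were 0, 2, 6 and 6 over the 4 intervals in each course, with 0 between runts and controls; the block changed no other call. The labels do not say what the numbers join, and of 16 pairs of a control and a runt with 1 number 13 correlated above 0.1 (-0.090 to 0.42) and 8 correlated best with their own number. Each control had 4 runts of its day to correlate with. As not all pairs did best with their own number, the numbers were not taken to pair the samples. The replicate 4 arrays all sat on slides 2 and 3, so number and slide cannot be told apart there. Whether some numbers pair littermates is not known. From day 37 to day 50 in controls 1 gene was called in the deposited table, and 0 to 1 with an array left out. From day 50 to day 70 in controls the count was 1 with normexp, with median centring and with a filter on all 32 arrays (19603 features, 5 of the genes), 0 within slides 1 to 3, 0 within slides 4 to 9 and 1 to 2 with an array left out. In runts over that interval it was 4 in the deposited table, 3 with normexp (ITGA2B and PPBP gained, TBXAS1 lost), 3 with the slide as a block (ITGA2B gained), 1 with the filter on all arrays, 0 within slides 1 to 3, 1 with the groups of the comparison alone and 1 to 4 with an array left out. For the mean of runts against controls it was 0 to 1 with an array left out. The cause was not tested, except that TBXAS1 could not be counted under the filter on all arrays, where it was not measured. Under median centring the median of all features was -0.16 and 0.14 in the first 2 intervals of controls, beside -0.0067 and -0.048 in the main fit. In runts it was -0.18 and 0.19, beside -0.016 and 0.0077. Over single values, 899 of 927 under other settings and 2956 of 2976 with an array left out kept their side of the threshold, with 0 called values turned in sign. Each array was left out in every comparison between groups, also where the groups compared did not hold it. The comparisons of runts with controls had 0 calls to lose. These counts therefore overstate how stable the calls were. Not run were the groups of the comparison alone for the mean over days and the test across days, normexp on the mean signal, which the files used here do not hold, and a promoter motif search. The signal over background of TBXAS1 before day 110 limits its values, and 4 arrays a group limit all.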
